A study of Homo sapiens with 12 samples.

Results

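The genes described here are 9 measured in pancreatic cancer cells in hydrogels: TAC3, VIPR1, RET, KIF1A, PCDH15, BCHE and KCNK3, which act in neuropeptide, growth factor or neural biology, together with the fatty acid receptor gene FFAR4 and the transcription factor gene GLIS1. They are 9 of the 16299 genes of the deposited table, and all 9 passed the filter on low values, which kept 15794 genes. They were chosen from their measured levels in the PANC1 line across the gels, so their PANC1 values are given as a description with no test. BXPC3 and PANC1 are established human pancreatic cancer lines, and each was embedded in a collagen hydrogel or in a hydrogel of gelatin methacryloyl (GelMA), a modified gelatin, at 5% or 7.5%. Both lines were kept in high glucose medium with foetal bovine serum, and no other agent or genetic change is given for any group. Each of the 6 groups (collagen, 5% GelMA and 7.5% GelMA, in BXPC3 and in PANC1) held 2 libraries of poly-A captured RNA, so each line had 2 collagen and 4 GelMA libraries. Each line is a single established line, and how stiff the gels were, how long the cells grew in them and whether replicates came from separate cultures were not given in the sources used here. A p-value below thus reflects only how far these libraries spread, and that spread may be technical.

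Neuropeptides are short peptides released by neurons and endocrine cells that act on G protein-coupled receptors on nearby or distant cells. RET is a receptor tyrosine kinase that responds to ligands of the glial cell line-derived neurotrophic factor (GDNF) family through GFRA coreceptors, and pancreatic tumours are known for growth along nerves, in which this pathway has been studied. The other genes encode a fatty acid receptor, a motor protein of axons, a cadherin of sensory hair cells, an enzyme that splits choline esters, a potassium channel and a zinc finger transcription factor.

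Levels are log2 RPKM, a read count divided by gene length and by library size, on a log2 scale, so a value under 0 is under 1 RPKM. The RPKM scale corrects for gene length, and levels of different genes are compared on it. The 2 libraries of each group correlated at r = 0.9921 to 0.9948 across genes, and 0 pairs of libraries were identical. SMAD4, which is known to be deleted in BXPC3, lay between -5.92 and -5.35 in the BXPC3 libraries and between 3.94 and 4.55 in those of PANC1, which fits the labels of the lines. Read depth is unknown, so a value far under 1 RPKM does not show that a transcript was absent. In bulk RNA, fewer cells with a transcript and less of the transcript per cell cannot be told apart.

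The members sorted into 3 descriptive sets in PANC1. TAC3, FFAR4 and GLIS1 were higher in both GelMA groups than in collagen, PCDH15, BCHE and KCNK3 were lower in both, and RET, KIF1A and VIPR1 differed from collagen by -0.15 to 0.30 log2 at 5% GelMA. The libraries of GelMA and collagen did not overlap for 7 of the 9 genes in PANC1, all but VIPR1 and KIF1A, where 61.6% of all genes tested showed such a separation. The libraries of 7.5% and 5% GelMA did not overlap for 8 of the 9, all but BCHE, where 66.2% of all genes did. In limma, 55.1% of all genes tested were called between GelMA and collagen in PANC1 at an adjusted p under 0.05 (27.7% higher and 27.4% lower), and 18.7% between 7.5% and 5% GelMA (9.16% higher and 9.56% lower). These shares are the background, and since the members were picked on the PANC1 levels nothing is read from their own counts.

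**Figure D1:**
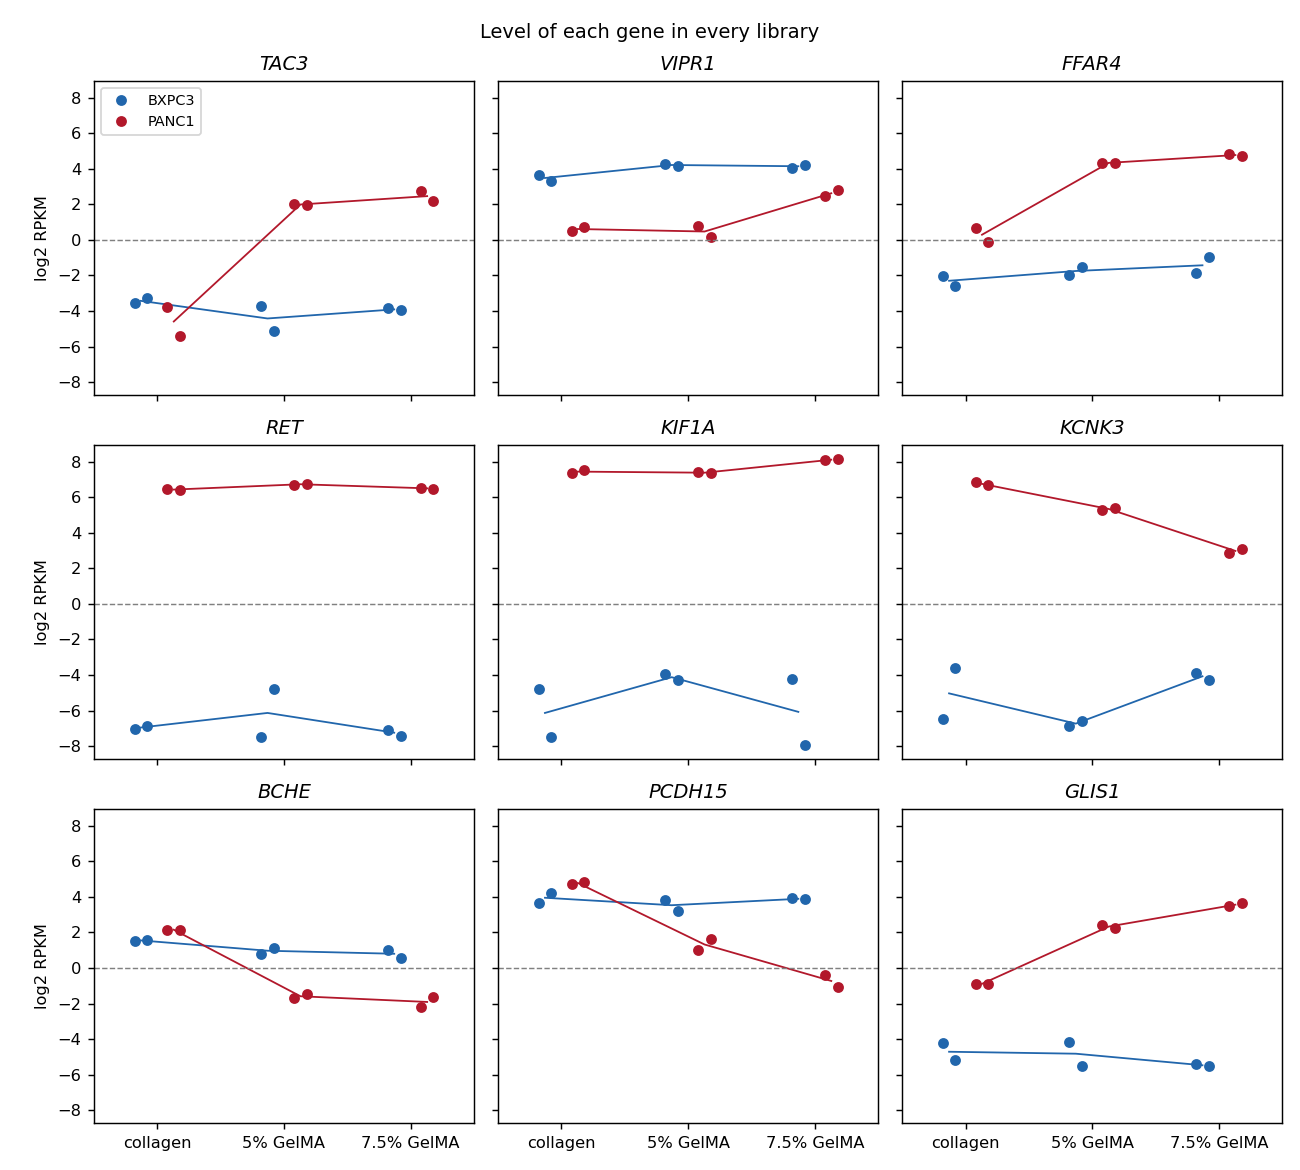
Level (log2 RPKM) of the 9 genes in each of the 12 libraries, by gel and by cell line, with the dashed line at 1 RPKM. In PANC1, TAC3, FFAR4 and GLIS1 sit higher in GelMA, while PCDH15, BCHE and KCNK3 sit lower; the 6 genes TAC3, FFAR4, RET, KIF1A, KCNK3 and GLIS1 stay under the line in every BXPC3 library.

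RefSeq entries for the 250 bases before a transcription start were found for all 9 genes (16 entries on GRCh38.p14). The 4 genes with a single entry are shown, a pair that was higher in PANC1 GelMA and a pair that was lower, so that sequence upstream of both directions can be compared; capitals mark the motif matches described after them. The TAC3 window lies at chr12:57016530-57016779, the FFAR4 window at chr10:93566415-93566664, the BCHE window at chr3:165837424-165837673 and the KCNK3 window at chr2:26692472-26692721, each printed 5′ to 3′ on the strand of the gene.
TAC3: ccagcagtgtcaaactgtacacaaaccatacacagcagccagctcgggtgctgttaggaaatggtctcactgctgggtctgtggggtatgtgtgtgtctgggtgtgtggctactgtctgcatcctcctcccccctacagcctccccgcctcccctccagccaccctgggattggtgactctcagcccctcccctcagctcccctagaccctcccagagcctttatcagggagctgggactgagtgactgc
FFAR4: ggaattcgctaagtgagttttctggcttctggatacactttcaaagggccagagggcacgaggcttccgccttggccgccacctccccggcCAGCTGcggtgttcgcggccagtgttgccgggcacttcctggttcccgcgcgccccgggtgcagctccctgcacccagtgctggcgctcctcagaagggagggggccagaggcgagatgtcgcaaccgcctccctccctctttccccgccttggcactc
BCHE: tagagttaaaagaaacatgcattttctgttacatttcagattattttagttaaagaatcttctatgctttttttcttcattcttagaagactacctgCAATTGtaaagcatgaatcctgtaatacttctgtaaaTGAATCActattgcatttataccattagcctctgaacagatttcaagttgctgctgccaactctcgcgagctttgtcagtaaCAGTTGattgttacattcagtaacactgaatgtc
KCNK3: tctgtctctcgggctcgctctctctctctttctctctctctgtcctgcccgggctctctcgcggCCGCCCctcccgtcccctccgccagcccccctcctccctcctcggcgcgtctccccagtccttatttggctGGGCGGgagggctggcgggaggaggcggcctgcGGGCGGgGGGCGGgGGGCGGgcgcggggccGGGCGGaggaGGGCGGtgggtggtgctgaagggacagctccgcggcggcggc
The G and C share was 60.0% for TAC3, 66.4% for FFAR4, 33.2% for BCHE and 76.4% for KCNK3. Both strands of each window were searched for 5 motifs by their letters: ACGTG (hypoxia response element core), TGACG (core of the cAMP response element), CANNTG (E-box), GGGCGG (GC box) and TGANTCA (AP-1 site), where an E-box can overlap the ACGTG core. The KCNK3 window held 7 GC boxes, the BCHE window 2 E-boxes and 1 AP-1 site, the FFAR4 window 1 E-box, and the TAC3 window none of the 5. Of 35116 windows of that length, 18.5% held ACGTG, 21.2% TGACG, 61.8% an E-box, 42.6% a GC box and 6.6% an AP-1 site. Among the 16 windows of the members, 1, 2, 8, 6 and 2 held these motifs in the same order. A match describes letters only, and no match says nothing of any factor.

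TAC3 encodes neurokinin B, a tachykinin peptide known from the hypothalamic control of reproduction (ENSG00000166863, chromosome 12, 57010000 to 57028883, minus strand, GRCh38). Its level in PANC1 was -3.78 and -5.40 in collagen, 2.00 and 1.97 in 5% GelMA and 2.73 and 2.20 in 7.5% GelMA. In BXPC3 the values were -3.57 and -3.29 in collagen, -3.72 and -5.11 in 5% GelMA, and -3.84 and -3.97 in 7.5% GelMA. Only the PANC1 GelMA libraries lay at or above 1 RPKM, at a mean of 3.96 RPKM in 5% and 5.62 RPKM in 7.5% GelMA. The difference between GelMA and collagen in PANC1 was 6.82 log2 (SE 0.48), with 6.58 at 5% and 7.05 at 7.5%, which share the collagen libraries. Because collagen was far under 1 RPKM, the size depends on the unknown offset, and on log2(RPKM + 1) it was 2.44. The exons of TAC3 share 112 of 1574 bases with MYO1A on the same strand; MYO1A was not analysed here. The tachykinin receptor genes TACR1, TACR2 and TACR3 were not analysed here.

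VIPR1 encodes VPAC1, a receptor for vasoactive intestinal peptide and PACAP (ENSG00000114812, chromosome 3, 42489299 to 42537573, plus strand). In PANC1 it was 0.52 and 0.70 in collagen, 0.76 and 0.18 in 5% GelMA and 2.45 and 2.80 in 7.5% GelMA. Collagen and 5% GelMA overlapped, and 7.5% GelMA lay above both. The difference was -0.15 log2 at 5% and 2.01 at 7.5% against collagen, and 2.15 between the GelMA concentrations (SE 0.20). In BXPC3 it was 3.62 and 3.33 in collagen, 4.26 and 4.16 in 5% GelMA and 4.06 and 4.23 in 7.5% GelMA, above every PANC1 library. VIPR1 rose in BXPC3 by 0.70 log2 in GelMA (SE 0.17, limma adjusted p = 0.0102), with all 4 GelMA libraries above both collagen libraries. Without BXPC3 collagen replicate 2 the call was lost (0.55 log2, adjusted p = 0.103); over the alternatives adjusted p ran from 0.00197 to 0.103. VIP and ADCYAP1, which encode its ligands, were not analysed here.

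FFAR4 encodes GPR120, a receptor for long-chain fatty acids (ENSG00000186188, chromosome 10, 93566665 to 93604480, plus strand). It read 0.69 and -0.11 in PANC1 collagen, 4.35 and 4.30 in 5% GelMA and 4.81 and 4.73 in 7.5% GelMA. All GelMA libraries lay well above the collagen libraries, which straddled 1 RPKM. The difference was 4.04 log2 at 5% and 4.48 at 7.5% GelMA, and 4.26 for both (SE 0.30), or 3.44 on log2(RPKM + 1). In BXPC3 every library was under 1 RPKM, from -2.58 in collagen to -0.98 in 7.5% GelMA, and the difference was 0.72 log2 on the deposited scale and 0.15 on log2(RPKM + 1).

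RBP4, which encodes the retinol carrier of plasma, lies on the opposite strand and its span shares 10058 bases with FFAR4, though the annotated exons share 0. In PANC1 it was 1.42 and 0.80 in collagen, 3.57 and 3.46 in 5% GelMA and 3.62 and 3.48 in 7.5% GelMA. RBP4 rose by 2.42 log2 in PANC1 GelMA (SE 0.26, limma adjusted p = 2.86e-05). The strand setting of the counting is not given, so reads of the overlapping span cannot be told apart by strand.

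**Figure D2:**
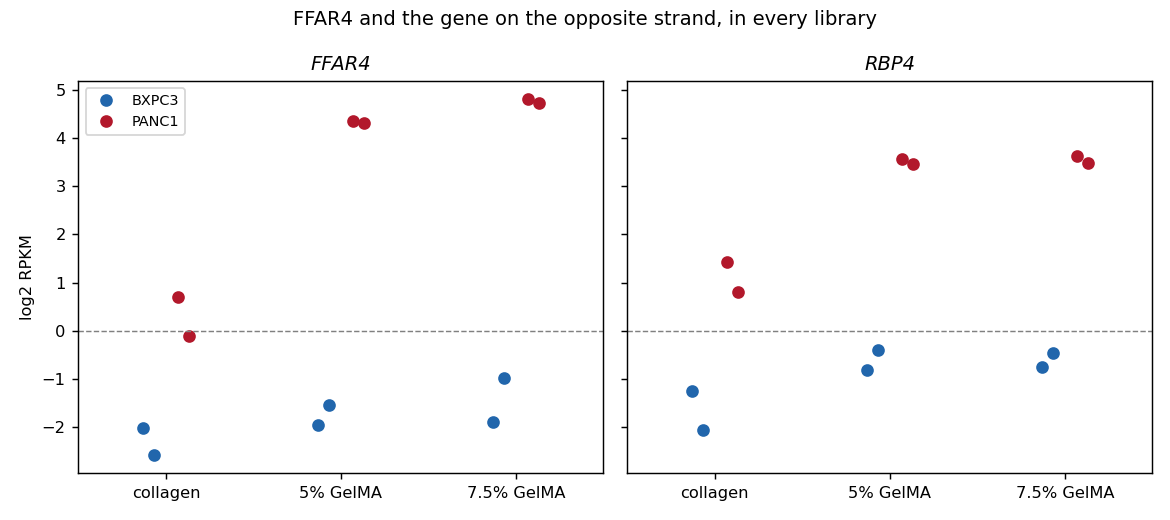
Level (log2 RPKM) of FFAR4 and of RBP4, which overlaps it on the opposite strand, in the 12 libraries by gel and line; the dashed line is 1 RPKM. Both are higher in the 4 PANC1 GelMA libraries than in collagen, and all BXPC3 libraries lie under 1 RPKM for both.

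RET encodes the receptor of the GDNF ligands (ENSG00000165731, chromosome 10, 43077027 to 43130351, plus strand). Its PANC1 levels were 6.46 and 6.40 in collagen, 6.71 and 6.74 in 5% GelMA and 6.52 and 6.48 in 7.5% GelMA. It was high in every PANC1 library, above 87.0% of all genes in collagen, and 5% GelMA was highest. The difference of GelMA from collagen was 0.19 log2, with SE 0.03 when only the PANC1 libraries were fitted and 0.56 when all 12 were, since the BXPC3 values, all under 1 RPKM, scatter more widely (SD up to 1.94). Against 5% GelMA, 7.5% GelMA was 0.23 lower on the log2 scale. In BXPC3 all values lay between -7.50 and -4.76, far under 1 RPKM.

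KIF1A encodes a kinesin that carries synaptic vesicle precursors along axons (ENSG00000130294, chromosome 2, 240713761 to 240821036, minus strand). PANC1 levels were 7.37 and 7.52 in collagen, 7.42 and 7.34 in 5% GelMA and 8.09 and 8.13 in 7.5% GelMA. Collagen and 5% GelMA overlapped, while 7.5% GelMA stood above both; the mean was 277 RPKM there. The 7.5% GelMA group differed from collagen by 0.67 log2 and from 5% GelMA by 0.73 (SE 0.05 in PANC1 alone, 1.04 in all 12 libraries). BXPC3 lay between -7.91 and -3.96, under 1 RPKM in all 6 libraries.

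PCDH15 encodes protocadherin 15, a partner in the tip links of inner ear hair cells (ENSG00000150275, chromosome 10, 53802771 to 55627942, minus strand). PANC1 read 4.73 and 4.83 in collagen, 1.00 and 1.64 in 5% GelMA and -0.42 and -1.05 in 7.5% GelMA. The 3 gels did not overlap, and only 7.5% GelMA was under 1 RPKM. The differences from collagen were -3.46 and -5.52 log2, and 7.5% lay 2.05 log2 under 5% GelMA. In BXPC3 it was 3.67 and 4.22, 3.84 and 3.22, and 3.91 and 3.87 in collagen, 5% and 7.5% GelMA, and did not pass the test (-0.23 log2, limma adjusted p = 0.505).

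BCHE encodes butyrylcholinesterase (ENSG00000114200, chromosome 3, 165772904 to 165837472, minus strand). In PANC1 it was 2.16 and 2.13 in collagen, -1.70 and -1.48 in 5% GelMA and -2.19 and -1.63 in 7.5% GelMA. Both GelMA groups were under 1 RPKM and overlapped each other. The difference from collagen was -3.90 log2 over both, or -2.06 on log2(RPKM + 1). In BXPC3 it was 1.52 and 1.57 in collagen, 0.81 and 1.14 in 5% GelMA and 1.01 and 0.58 in 7.5% GelMA. BCHE fell in BXPC3 by 0.66 log2 (SE 0.21, limma adjusted p = 0.0328), with all 4 GelMA libraries below the collagen libraries. The call was lost without 5% GelMA replicate 1 (0.0813), 7.5% GelMA replicate 2 (0.0902), collagen replicate 1 (0.0965) or collagen replicate 2 (0.139), each an adjusted p from limma, and the alternatives ran from 0.0031 to 0.139.

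KCNK3 encodes TASK-1, a leak potassium channel that sets resting potential (ENSG00000171303, chromosome 2, 26692690 to 26733420, plus strand). PANC1 read 6.84 and 6.66 in collagen, 5.26 and 5.42 in 5% GelMA and 2.86 and 3.10 in 7.5% GelMA. The 3 gels were separate and descended in that order, from 108 RPKM in collagen to 7.91 RPKM in 7.5% GelMA. The steps were -1.41 from collagen to 5% and -2.36 from 5% to 7.5% (SE 0.09 for GelMA against collagen in PANC1 alone, 0.59 in all 12 libraries). In BXPC3 all 6 libraries were under 1 RPKM, from -6.85 to -3.58.

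GLIS1 encodes a Krüppel-like zinc finger factor (ENSG00000174332, chromosome 1, 53506237 to 53738106, minus strand). It read -0.89 in both PANC1 collagen libraries, 2.40 and 2.26 in 5% GelMA and 3.49 and 3.63 in 7.5% GelMA. Collagen alone was under 1 RPKM, and the 3 gels were separate. The differences were 3.22 log2 at 5% and 4.45 at 7.5%, or 2.51 for both on log2(RPKM + 1), with 1.23 between concentrations. In BXPC3 all libraries were under 1 RPKM, from -5.51 to -4.14.

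**Figure D3:**
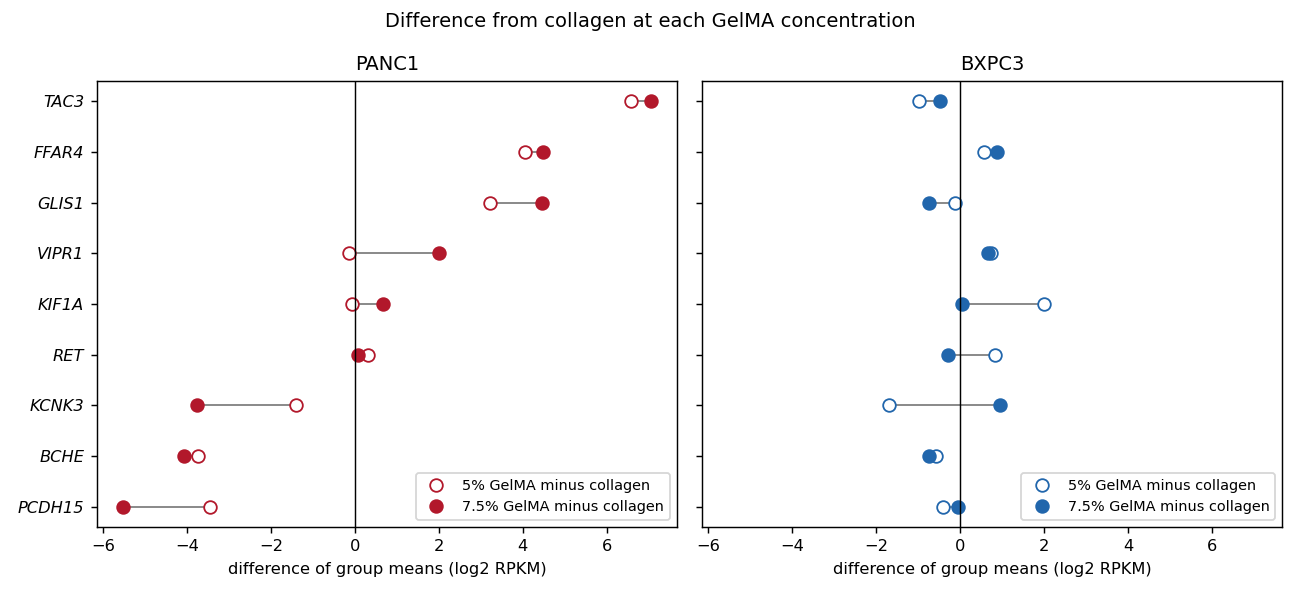
Difference in mean level (log2 RPKM) of each gene from collagen in 5% GelMA (open circles) and 7.5% GelMA (filled circles), for PANC1 and BXPC3. A grey line joins the differences of each gene and is not an error bar. The PANC1 differences range from 7.05 for TAC3 to -5.52 for PCDH15, both in 7.5% GelMA.

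By level, 4 members were at or above 1 RPKM in every PANC1 library (VIPR1, RET, KIF1A and KCNK3). Group means lay under 1 RPKM in PANC1 for TAC3 and GLIS1 in collagen, BCHE in both GelMA gels and PCDH15 in 7.5% GelMA. In BXPC3, 6 members were under 1 RPKM in every library and 3 (VIPR1, PCDH15 and BCHE) were at or above it in every library. The values nearest the 1 RPKM line were VIPR1 in PANC1 5% GelMA (0.18), just inside, and FFAR4 in PANC1 collagen (-0.11), just outside.

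The genes were chosen from their PANC1 levels with earlier results of these data known. The BXPC3 tests are thus not shown to be independent of that choice. Of the 9, 6 passed the filter only through PANC1 and lay under 1 RPKM in all 6 BXPC3 libraries. Their BXPC3 values are given as a description, and a test is read only for VIPR1, PCDH15 and BCHE. Between GelMA and collagen, 2 of these 3 were called in limma (VIPR1 rose and BCHE fell), against 36.1% of all genes tested (19.4% higher, 16.7% lower); with the filter applied to BXPC3 alone, 5526 of 14343 genes were called and both calls held (adjusted p = 0.00876 and 0.0296). Their libraries did not overlap for 2 of the 3, against 52.0% of all genes. Between 7.5% and 5% GelMA, 0 of the 3 were called and 0 had an unadjusted p under 0.05 in limma, against 0.0823% of all genes called (0.0443% higher, 0.0380% lower). No other tool was run. The libraries of those groups did not overlap for 1 of the 3, PCDH15, against 41.1% of all genes. KCNK3 was 2.67 log2 higher in 7.5% than in 5% GelMA in BXPC3, but both groups were under 1 RPKM and the difference was 0.07 on log2(RPKM + 1).

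Of 20 genes fixed as direct partners of the members, 8 had a row and 12 (TACR1, TACR2, TACR3, VIP, ADCYAP1, GFRA1, GFRA2, GFRA3, GDNF, NRTN, FFAR1 and KCNK9) were not analysed here. In PANC1, ARTN, a GDNF family ligand, rose by 0.33 log2 in GelMA (limma adjusted p = 0.0359), but the call was lost in 6 of 13 alternatives, without PANC1 collagen replicate 2 among them (0.18, adjusted p = 0.298). ACHE, the relative of BCHE that hydrolyses acetylcholine, rose by 0.83 (SE 0.11), with means of 3.38 in collagen, 4.56 in 5% and 3.85 in 7.5% GelMA. CDH23, the tip link partner of PCDH15, fell by 1.81 (SE 0.18, limma adjusted p = 2.15e-05). GLIS3 rose by 1.11 and GLIS2 fell by 0.77. KIF1B and KIF1C, relatives of KIF1A, rose by 0.55 and 0.19. REST, a repressor of neuronal genes, fell by 0.14 (limma adjusted p = 0.0448), a call lost in 8 of 13 alternatives, with adjusted p up to 0.142.

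The lists were written from textbook knowledge with earlier results of these data known. Among 172 tested genes of 19 lists, each count below is of genes called in PANC1 GelMA against collagen, where 55.1% of all genes were called and the median of all was -0.01 log2. GelMA there is the mean of the 5% and 7.5% groups, between which 18.7% of all genes were called. Calls of 6 of these genes (HCAR3, CD36, KCNK1, UCHL1, PDGFRA and PECAM1) concern levels under 1 RPKM in every PANC1 library. The list of tachykinins, kisspeptin, their receptors and their peptidases was tested for KISS1, KISS1R, MME and ACE, with no tachykinin gene among them. Of these 4 genes 1 rose and 2 fell: the peptidase MME, neprilysin, fell by 2.95 (SE 0.13) and ACE rose by 1.71 (SE 0.52), whereas KISS1R fell by 1.91 (SE 0.66). ACE lost its call without PANC1 collagen replicate 1 (1.80 log2) or replicate 2 (1.61). KISS1R lost its call in 7 alternatives, among them leaving out any of the 6 PANC1 libraries (-1.98 to -1.84). For both genes the PANC1 replicates lay close together (SD 0.05 to 0.15 for ACE and 0.08 to 0.19 for KISS1R). Their BXPC3 values scattered more widely (SD up to 1.51 and 2.09) and enter the SE of the fit over all 12 libraries. Both calls held when only the PANC1 libraries were fitted. The list around the VIP and secretin family was tested for the receptors GIPR and GCGR, the receptor partner RAMP1 and the peptidase DPP4. Of these 4 genes 1 fell, GIPR, by 0.51, or by 0.32 without PANC1 collagen replicate 2. Of 5 genes of fatty acid and metabolite receptors and carriers (HCAR1, HCAR2, HCAR3, CD36 and FABP5) 2 rose and 1 fell; HCAR1, the lactate receptor, rose by 0.45 but not without PANC1 collagen replicate 2 (0.17, limma adjusted p = 0.215) and was 0.72 without replicate 1.

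Of 20 GDNF ligands and RET adaptors, 4 rose and 10 fell (median -0.13). SHC3, an adaptor of neural receptors, rose by 1.41 (SE 0.07) and GDF15 by 0.66, while GAB1 fell by 1.06 and the phosphatase PTPRF by 1.69 (SE 0.05). Of 22 neurotrophin and guidance genes 11 rose and 6 fell (median 0.12): NRP2 rose by 1.18 and SORT1 by 0.95, and ROBO2, a Slit receptor, fell by 2.54 (SE 0.24) and SEMA3E by 1.02. The SEMA3E means were 3.83 in collagen, 3.46 in 5% and 2.16 in 7.5% GelMA. Of 24 kinesins and adaptors 10 rose and 4 fell. KIF26B rose by 1.72 (1.09 on log2(RPKM + 1)). KIF21B fell by 0.70, though not past the threshold without PANC1 collagen replicate 1 (adjusted p = 0.0794), and RAB3A, a synaptic vesicle GTPase, fell by 1.25, also uncalled without that library (-0.89, limma adjusted p = 0.0558). On log2(RPKM + 1) some differences of low genes were smaller by over 1.5 times: -1.23 for MME, -0.65 for RAB3A, -0.38 for KIF21B and 0.20 for ARTN.

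Of 8 hair cell tip link and Usher genes, 1 rose and 3 fell: MYO7A, the hair cell myosin, rose by 1.23 (SE 0.20), and TMIE, a part of the hair cell channel complex, fell by 2.45 (1.58 on log2(RPKM + 1)). Of 12 other protocadherins and FAT and DCHS cadherins 4 rose and 4 fell; PCDH1 fell by 1.87 (SE 0.04) and PCDH7 by 1.75, PCDH18 rose by 0.69, and PCDHGC3, which shares exons with its cluster and is therefore uncertain, by 0.70. Of 9 cholinergic genes 3 rose and 1 fell: CHRM4, a muscarinic receptor, fell by 1.78 (SE 0.29) and CHRNA5 rose by 0.32. Of 4 potassium channels of the same family as KCNK3, 3 rose and 0 fell, KCNK1 by 0.79 under 1 RPKM, KCNK6 by 0.83 and KCNK5 by 0.64 (0.36 on log2(RPKM + 1)). Of 12 GLIS, GLI, ZIC and Hedgehog genes, 3 rose and 4 fell; ZIC2 fell by 1.19 and ZIC5 by 1.29, and SHH rose by 0.74 (SE 0.24, limma adjusted p = 0.0221), a call lost without PANC1 collagen replicate 1, collagen replicate 2 or 7.5% GelMA replicate 1 (adjusted p = 0.0796, 0.104 and 0.0526).

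**Figure D4:**
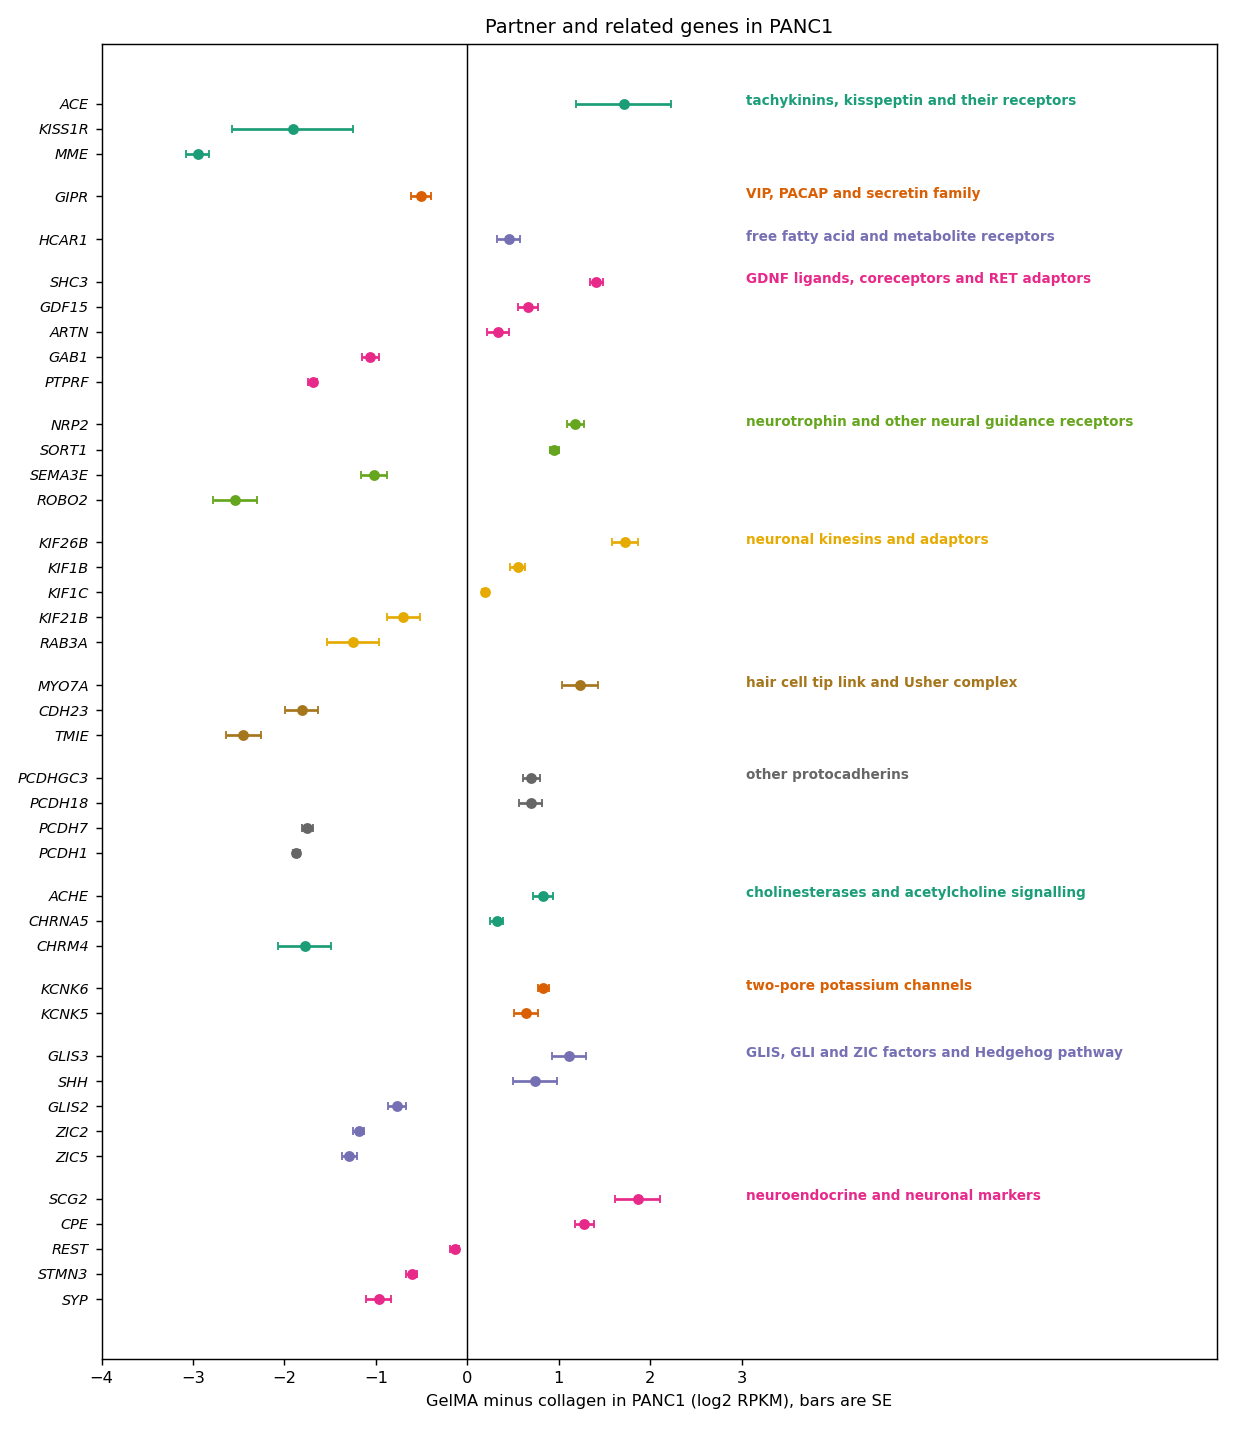
Difference between GelMA and collagen in PANC1 (log2 RPKM, SE bars) for a part of the called genes, grouped and coloured by list. Shown are the fixed partners and, from the partner lists and the neuroendocrine and neuronal markers, the largest called rises and falls, at most 2 each. Other called genes of these lists are not shown. Among the genes shown, MME has the lowest value, -2.95, and SCG2 the highest, 1.86.

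The lists of markers that other cell types could bring gave these counts in PANC1. Of 14 neuroendocrine and neuronal markers 5 rose and 5 fell (median -0.34): SCG2, a granin, rose by 1.86 (SE 0.25) and CPE by 1.28, and SYP fell by 0.97 and STMN3 by 0.61. Their summed RPKM was 324 to 332 in collagen, 328 to 331 in 5% and 464 to 465 in 7.5% GelMA. Such a sum is weighted to its highest genes. SCG2, at 4.97, 6.22 and 7.45 log2 in these groups, was the highest of these markers in 7.5% GelMA. Of 4 fibroblast markers 2 rose and 1 fell, COL1A1 by 1.66 up and COL3A1 by 2.62 down. Their sum was 159 to 166, 241 to 245 and 386 to 448. Its rise was that of COL1A1, at 6.50, 7.74 and 8.59 log2, while COL3A1 read 5.73, 3.54 and 2.68. THY1 was not called and PDGFRA rose under 1 RPKM. DCN, LUM, PDGFRB, COL1A2 and FAP of that list were not analysed here. Of 8 ductal markers 5 rose and 2 fell: KRT7 rose by 0.78, EPCAM by 1.00, and MUC1 fell by 0.61, while SOX9 fell by 0.11, which was -0.06 and uncalled without PANC1 collagen replicate 2 (limma adjusted p = 0.167). Of 3 Schwann markers 1 rose and 1 fell (ERBB3 by 0.24, not called in 5 alternatives), 0 of 3 immune markers were called, and of 2 endothelial markers PECAM1 rose by 0.83, under 1 RPKM in every PANC1 library. The summed RPKM of the Schwann markers was 9.13 to 9.18 in collagen, 7.02 to 7.61 in 5% and 8.22 to 9.35 in 7.5% GelMA, and that of the immune markers 5.59 to 7.9, 7.82 to 8.69 and 6.76 to 7.07. The endothelial sum was 0.228 to 0.339, 0.387 to 0.703 and 1.11 to 1.42, and includes KDR, which did not pass the filter and read -0.16 and 0.35 log2 in 7.5% GelMA. PTPRC, CDH5 and SOX10, defining markers of immune, endothelial and Schwann cells, were not analysed here. Of 13 mitochondrially encoded genes 8 rose and 0 fell, MT-ND3 by 1.07 and MT-ATP8 by 1.39. The table was taken to be quantile normalized, which gives a gene of fixed rank a fixed value. MT-CO1 read 13.74 in all 12 libraries and MT-ND4 13.09 in all 6 PANC1 libraries, so such genes at the top ranks could show no change. Whether the differences in these lists bear on the levels of the members was not tested.

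The genes whose centred levels over the 6 PANC1 libraries were closest to each member, by root mean square difference, are a description with no test. TAC3 was followed at some distance by KRT75 (1.03 log2) and ANGPT2 (1.17). FFAR4 was followed by GPR143 (0.37) and SOWAHB (0.38), GLIS1 by RADIL (0.32) and SOWAHB (0.36), and VIPR1 by CLIC5 (0.28) and COL8A1 (0.29). The measure compares shapes and not levels: group means of CLIC5 (-6.04 to -4.05) and COL8A1 (-6.23 to -4.50) lay far under 1 RPKM in PANC1, where VIPR1 was above it. Of the genes lower in GelMA, PCDH15 was nearest CASP14 (0.46) and CP (0.56), BCHE nearest FGF19 (0.22) and FOXP2 (0.34), and KCNK3 nearest PPP1R3G (0.18) and PDK1-AS1 (0.18). RET was nearest FUCA2 and LYNX1 (0.02 each), and KIF1A MOCS1 (0.05) and VDR (0.06); small differences here partly reflect that these members vary little in PANC1. The 6 libraries share the line, and gels of the same kind share whatever else differed between them.

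Genes within 200 kb of the members were counted for their calls in PANC1 GelMA against collagen. Of all genes tested, 55.1% were called there (27.7% higher and 27.4% lower). Of 7 tested neighbours of TAC3, 0 rose and 5 fell; of 4 of FFAR4, 3 rose (RBP4 among them) and 1 fell; of 8 of KIF1A, 4 rose and 0 fell. Of 4 of VIPR1 2 rose, of 4 of GLIS1 2 rose, of 3 of RET 1 fell, of 2 of KCNK3 1 fell, and the 1 neighbour of BCHE was not called. PCDH15 had 0 tested neighbours. Some called differences were small, such as 0.14 log2 for NKTR near VIPR1 and -0.20 for STAT6 near TAC3. MAB21L4, among those that rose near KIF1A, had PANC1 group means far under 1 RPKM (-3.68 to -2.15). Whether members and neighbours are linked was not tested.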

How the data were processed

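Poly-A RNA of 12 libraries (6 groups of 2) was measured. Per the submitters' processing notes, HISAT2 2.1.0 and HTSeq were used with GRCh38; their settings, the strand setting, the offset before the log and the gene filter were not given in the sources used here. Log2 RPKM is the deposited unit, from -8.66 to 13.74 for 16299 genes, with 0 per-sample columns unmapped. Sorted values of the libraries lay within 0.05 log2 at 13917 ranks, so the deposited table was taken to be quantile normalized, a reading of the values and not of a label; this removes changes shared by most genes. Depth is unknown, so the spread between libraries is the only error given.

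Symbols came from a gene-name table (16250 IDs) and GENCODE 29 (49 IDs), with positions from GENCODE 29. A gene was tested if 2 or more libraries reached 1 RPKM (15794 genes; 505 left out). The fit used limma 3.58.1 under R 4.3.3 (eBayes with a mean-variance trend, a mean per group over all 12 libraries, 6 residual and 3.89 prior degrees of freedom), with Benjamini-Hochberg adjustment over all genes tested and calls at adjusted p under 0.05. The fit was tested on simulated data. In BXPC3 a test is read only for members that pass the filter there, a limit set after the data were seen. All adjusted p-values are from it unless an alternative is named. GelMA is the mean of the 5% and 7.5% groups. Where only PANC1 or only BXPC3 was fitted, the SE is given as such.

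Named were all 9 members, from each list the 2 largest rises and falls called in PANC1 with a PANC1 group mean of at least 1 RPKM, fixed partners, and the 2 nearest genes of each member. RBP4 was added because it overlaps FFAR4. The members, the lists and the rules were chosen with earlier results of these data known. Alternatives were another offset, no or another filter, no trend, the libraries of a line alone, a replicate block and leaving out each replicate. Promoter windows are from RefSeq.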

Additional observations from a re-analysis of the deposited data

Results flagged for a closer look

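For the following genes the difference had opposite signs in the lines, with no overlap between the libraries of the compared groups in either line. The difference between the lines was not tested for any of them. TAC3 differed between GelMA and collagen by 6.82 log2 in PANC1 and -0.73 in BXPC3, where all its values were under 1 RPKM. Between 7.5% and 5% GelMA, PCDH15 differed by -2.05 in PANC1 and 0.36 in BXPC3, where it was not called, and KCNK3 by -2.36 and 2.67, the latter between groups under 1 RPKM.

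Between GelMA and collagen, all the listed genes that follow were called in PANC1. Not called in BXPC3 were MME (-2.95 in PANC1 and 0.22 in BXPC3, limma adjusted p = 0.223 in BXPC3), SEMA3E (-1.02 and 0.29, adjusted p = 0.128, though 0.0321 without BXPC3 5% GelMA replicate 2) and PCDH1 (-1.87 and 0.06, adjusted p = 0.31). Called in both lines were NRP2 (1.18 and -0.43), PCDH7 (-1.75 and 0.42), SOX9 (-0.11 and 0.31), KIF21B (-0.70 and 0.75, lost in BXPC3 without collagen replicate 2, adjusted p = 0.0573), HCAR1 (0.45 and -0.41) and PCDH18 (0.69 and -0.86). The BXPC3 call of HCAR1 was lost in 7 of 13 alternatives, with adjusted p up to 0.27. PCDH18 lay under 1 RPKM in every BXPC3 library, and on log2(RPKM + 1) its difference there was -0.17 and not called (limma adjusted p = 0.097). The PANC1 calls of SOX9, KIF21B and HCAR1 also depended on single collagen libraries, as given with their values. Only genes named by the rules were looked at here, so the set is not complete. Other listed genes met the same conditions with calls in both lines, such as SYT1 (1.03 in PANC1 and -0.56 in BXPC3), KLC2 (-0.13 and 0.41) and MT-ND4L (0.82 and -0.35). The share of all genes with opposite signs was not counted.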

How the results depend on the processing

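Of 234 PANC1 values of the members by setting, 212 moved by less than the replicate spread, 22 moved by more and 0 reversed. Many of the 212 could not move: in either line another filter, no trend, the line alone or the replicate block leaves a difference unchanged. Leaving out a collagen library likewise cannot move the difference between 7.5% and 5% GelMA. These counts are therefore no measure of how stable the values are. The TAC3 difference between GelMA and collagen ran from 2.44 to 7.62 log2. Of 222 BXPC3 values, 199 kept direction and side of the threshold, 7 became called (all of them for FFAR4, KCNK3, KIF1A or RET, which were under 1 RPKM there), 5 lost their call (BCHE and VIPR1) and 11 reversed; the cause was not tested. Leaving out a replicate gave these ranges in BXPC3 for values that reversed: between GelMA and collagen GLIS1 -0.90 to 0.04, KCNK3 -1.82 to 1.08, KIF1A -0.34 to 2.40, PCDH15 -0.51 to 0.05 and RET -0.41 to 0.96; between 7.5% and 5% GelMA BCHE -0.39 to 0.04, FFAR4 -0.14 to 0.77, GLIS1 -1.32 to 0.04, RET -2.48 to 0.26, TAC3 -0.19 to 1.21 and VIPR1 -0.15 to 0.02. Apart from PCDH15, BCHE and VIPR1 these genes were under 1 RPKM in BXPC3.

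Over all genes, calls in BXPC3 between 7.5% and 5% GelMA were 13, 0 with a filter within the line, with offsets of 0.1 or 1 RPKM, with the line alone or with the replicate block, and 6 to 33 without 1 replicate. Leaving out a replicate gave 3623 to 5324 BXPC3 calls between GelMA and collagen (3623 without collagen replicate 2, against 5703) and 1449 to 3129 PANC1 calls between 7.5% and 5% GelMA, against 2956. With the replicate block, calls were 8380 against 8700 and 2565 against 2956 in PANC1, and 5252 against 5703 in BXPC3. Replicate differences correlated between groups of a line at -0.05 to 0.08, so no pairing by replicate number was seen over the genes tested. These values cannot show whether libraries of the same number were cultured or processed together. Depth sets a limit that the files do not give.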

Other observations

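When levels over all 12 libraries were centred in place of the PANC1 libraries alone, the nearest genes changed for most members. BCHE was closest to HK2 (0.55 log2 root mean square) and VEGFA (0.56), which encode hexokinase 2 and a vascular growth factor, and PCDH15 to BCHE (0.71) and CP (0.76). VIPR1 was closest to HOOK1 (0.39) and DYSF (0.40), FFAR4 to RXFP4 (0.48) and the readthrough gene ARHGAP19-SLIT1 (0.65), and GLIS1 to RADIL (0.50). TAC3 kept KRT75 and ANGPT2. The contrast between the lines enters these values, and none was tested.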
